A study of Homo sapiens with 6 samples.

Results

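The genes described here encode the nutrient transporters of 11 solute carrier families (SLC1, SLC2, SLC3, SLC5, SLC6, SLC7, SLC16, SLC27, SLC36, SLC38 and SLC43), which carry amino acids, sugars, lactate, fatty acids and related small molecules across membranes. They were chosen by symbol and family membership among protein-coding genes. GENCODE release 44 lists 105 such genes, and 58 of them were among the 19469 genes of the deposited count table. The other 47 had no row in the table and were not analysed here. Of the 58 measured genes, 26 were classed under amino acids, 14 under sugars and polyols and 8 under monocarboxylates. Another 5 were classed under fatty acids, 2 under taurine or creatine and 3 under vitamins or other molecules. Not every member is known to carry the substrate of its class. SLC16A14 has no settled substrate, SLC3A1 and SLC3A2 are heavy chains of exchangers, and SLC38A9 is a sensor.

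The study sorted cells of L3.6pl, a cultured human line from pancreatic cancer, by fluorescence-activated cell sorting on surface L1CAM, a neural cell adhesion molecule, and sequenced the RNA of 3 L1high (L1CAM-positive) and 3 L1low (L1CAM-negative) libraries. Both groups came from the same line, grown in DMEM with fetal bovine serum and penicillin/streptomycin, and the labels give no treatment for either. The titles name the line L3.6pl while its characteristics write L6.6pl, and the disease is given both as pancreatic ductal adenocarcinoma and as adenosquamous carcinoma. The comparison addresses how the RNA of cells with little surface L1CAM differs from that of cells with much of it. Both populations model sorted fractions of 1 cultured line, and the labels do not say that the 3 libraries of a group came from separate cultures, so the p-values measure the spread between these libraries, which may be technical.

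Total counts per library ran from 16334610 to 21064685, and the 58 genes held 0.416% to 0.440% of the counts in L1high and 0.459% to 0.503% in L1low. Values per library are CPM, which scale a gene's count to a common library total with TMM factors, given in the order of replicates 1, 2 and 3. A positive log2 fold change means a higher level in L1low, and a gene is called where edgeR's quasi-likelihood test over all 6 libraries gave a Benjamini-Hochberg adjusted p under 0.05. L1CAM, the sorting marker, stood at 84.0, 69.8 and 89.5 CPM in L1high and 17.7, 23.7 and 20.0 CPM in L1low (log2 fold change -1.99, standard error 0.12, adjusted p = 4.69e-06), which matches the labels and is no finding. All 6 epithelial markers examined (KRT8, KRT18, KRT19, KRT7, EPCAM and CDH1) had a row, and their summed level was 4232 to 4785 CPM in L1high and 4780 to 5130 in L1low, with KRT19 called higher and EPCAM lower (adjusted p = 0.000136 and 0.0496). Of 7 fibroblast markers, DCN, PDGFRA, PDGFRB, THY1 and FAP had no row, COL3A1 lay between 1.02 and 2.20 CPM, and LUM, which encodes lumican, was called higher in L1low (0.78, adjusted p = 0.000135). Immune (PTPRC, CD68, CD3E) and endothelial (PECAM1, VWF, CDH5) markers each had 1 of 3 genes with a row, CD68 at 8.42 to 11.3 CPM and PECAM1 at 11.3 to 14.7 CPM, and the 3 acinar markers (PRSS1, CPA1, CELA3A) had none. Of 10 genes that respond to handling stress, 5 (50%) were called higher in L1low (FOS, FOSB, EGR1, ATF3 and IER2), against 4.58% of all genes. The 10 genes summed to 8268 to 8890 CPM in L1high and 10189 to 10923 in L1low. Of 6 proliferation genes, 3 (50%) were called lower in L1low (CDK1, PCNA and CCNB1), against 3.37% of all genes. The 6 genes summed to 2351 to 2394 CPM in L1high and 2060 to 2155 in L1low. The part of LUM, of the stress genes and of the proliferation genes in the results on the transporters was not tested.

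As background, solute carriers are membrane proteins that either let a nutrient run down its gradient, couple it to sodium or protons, or exchange it for another molecule. In tumor cells, glutamine brought in by SLC1A5 can leave through the SLC7A5/SLC3A2 exchanger in return for leucine and other large neutral amino acids, which the mTORC1 pathway senses, and SLC7A11 with the same heavy chain SLC3A2 brings in cystine for glutathione synthesis. SLC2A1 is the widespread glucose carrier, SLC16A1 and SLC16A3 carry lactate, and proteins of the SLC27 family take up long-chain fatty acids and join them to coenzyme A. Pancreatic cancer cells are known for a high demand for glucose and glutamine.

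The most abundant of these transcripts per length of gene belonged to the leucine exchanger. SLC7A5 held 169 ± 15.4 CPM per kilobase in L1high and 217 ± 6.77 in L1low (mean ± SD, n = 3 per group), the highest level of the 58 genes in both populations. The glucose carrier SLC2A1 came next, with 73.3 ± 2.45 CPM per kilobase in L1high and 98.3 ± 2.21 in L1low. The next genes were amino acid transporters with levels close to each other. SLC38A2, a sodium-coupled carrier of small neutral amino acids, held 71.2 ± 6.56 CPM per kilobase in L1high and 83.7 ± 16.5 in L1low. SLC1A5, the glutamine exchanger, held 59.8 ± 5.42 CPM per kilobase in L1high and 72.2 ± 1.09 in L1low, and SLC3A2, the heavy chain, held 63.2 ± 2.75 CPM per kilobase in L1high and 67.1 ± 3.60 in L1low. In L1high the means of SLC2A1, SLC38A2, SLC3A2 and SLC1A5 lay between 59.8 and 73.3 CPM per kilobase with SDs up to 6.56. Neighbours in this order were not separated beyond their spread, whereas SLC7A5 stood apart on this measure. The length used is the union of all annotated exons, 4764 bases for SLC7A5 and 6392 for SLC3A2. It can exceed the length of the transcripts made, so the order between genes is uncertain. The size of ratios per length between genes is uncertain too, but their change between the groups is unaffected. By class, the highest levels were those of SLC7A5 for amino acids, SLC2A1 for sugars, SLC6A8 (creatine), SLC16A3 (lactate), SLC27A2 (very-long-chain fatty acids) and SLC5A6 (biotin and pantothenate). In L1low SLC16A3 led SLC16A1 within the spread (14.47 ± 1.64 against 14.45 ± 1.46 CPM per kilobase), though not in L1high. In L1high SLC27A2 led SLC27A4 within the spread (14.8 ± 0.42 against 13.8 ± 0.89), though not in L1low. The lowest was SLC43A2, a carrier of large neutral amino acids, at 0.123 CPM per kilobase over all 6 libraries.

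**Figure D1:**
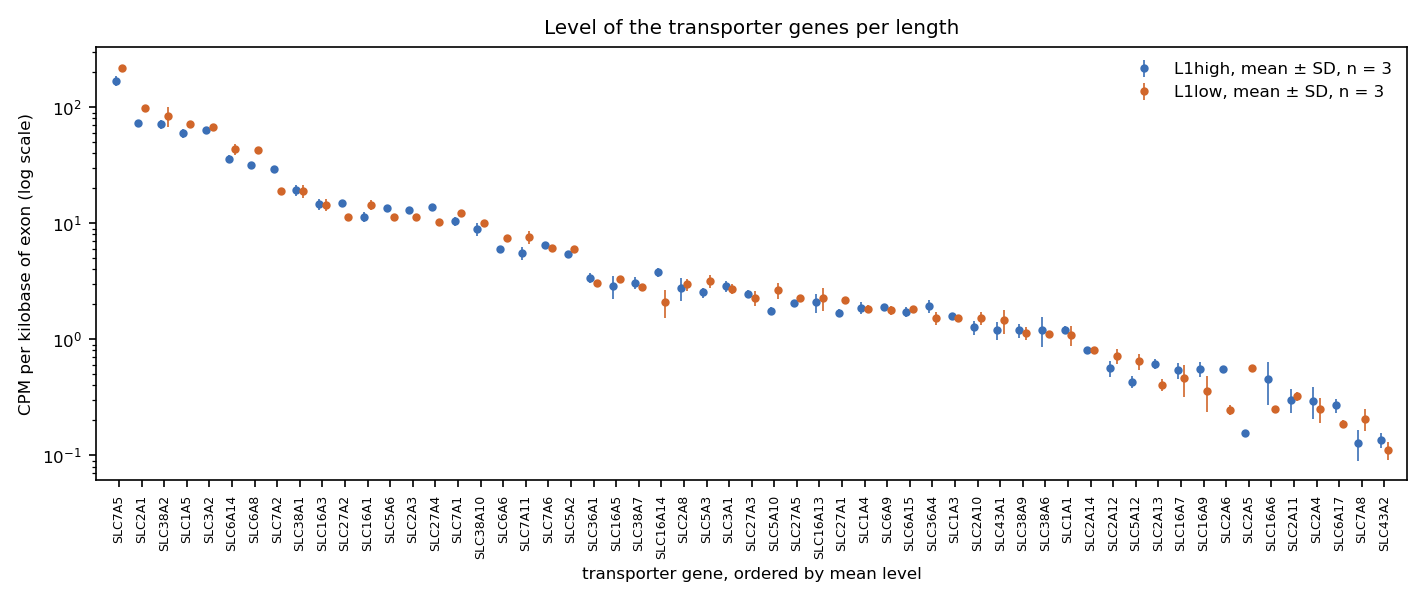
Mean level ± SD (n = 3) of 57 of the transporter genes in CPM per kilobase of exon on a log scale, ordered by their mean over all libraries, for L1high (blue) and L1low (orange). SLC7A5 stands at 169 in L1high and 217 in L1low at the left end, and SLC43A2 is at the right end.

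Between the populations, 15 of the 58 genes passed the test (25.9%), against 7.95% of all 19467 genes tested and 9.94% of the 13455 protein-coding genes tested. Of these, 9 were higher in L1low (4.58% of all genes were) and 6 were lower (3.37% of all genes). Of the 29 genes with the higher levels per length 11 were called, and of the 29 with the lower levels 4, with median standard errors of 0.09 and 0.18. Of the log2 fold changes 29 were positive and 29 negative, with a median of 0.0040 for the 58 genes and -0.0087 for all genes tested. In 22 genes (37.9%) the 3 L1low and the 3 L1high libraries did not overlap, 12 with L1low above and 10 with L1low below, whereas 28.8% of all genes did not overlap. These were the 15 called genes and SLC7A1, SLC6A17, SLC27A1, SLC5A12, SLC16A6, SLC2A3 and SLC5A6. The table holds only genes above 1 CPM in at least 2 libraries, and 54 of the 58 exceeded that level in every library. SLC2A6 exceeded it in L1high libraries alone, so that its direction was fixed by the filter. Without SLC2A6, 14 of 57 genes were called, 5 of them lower, and 21 did not overlap, 9 of them with L1low below. Without L1high replicate 3, which leaves the 5 libraries the study itself compared, 12 of the 58 were called, all of them among the 15 (7.57% of all genes), and the number was 5 without L1low replicate 2, 6 without L1high replicate 1 and 9 without L1low replicate 1. These are RNA levels in bulk populations, in which fewer cells with a transcript and less of it per cell cannot be told apart.

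**Figure D2:**
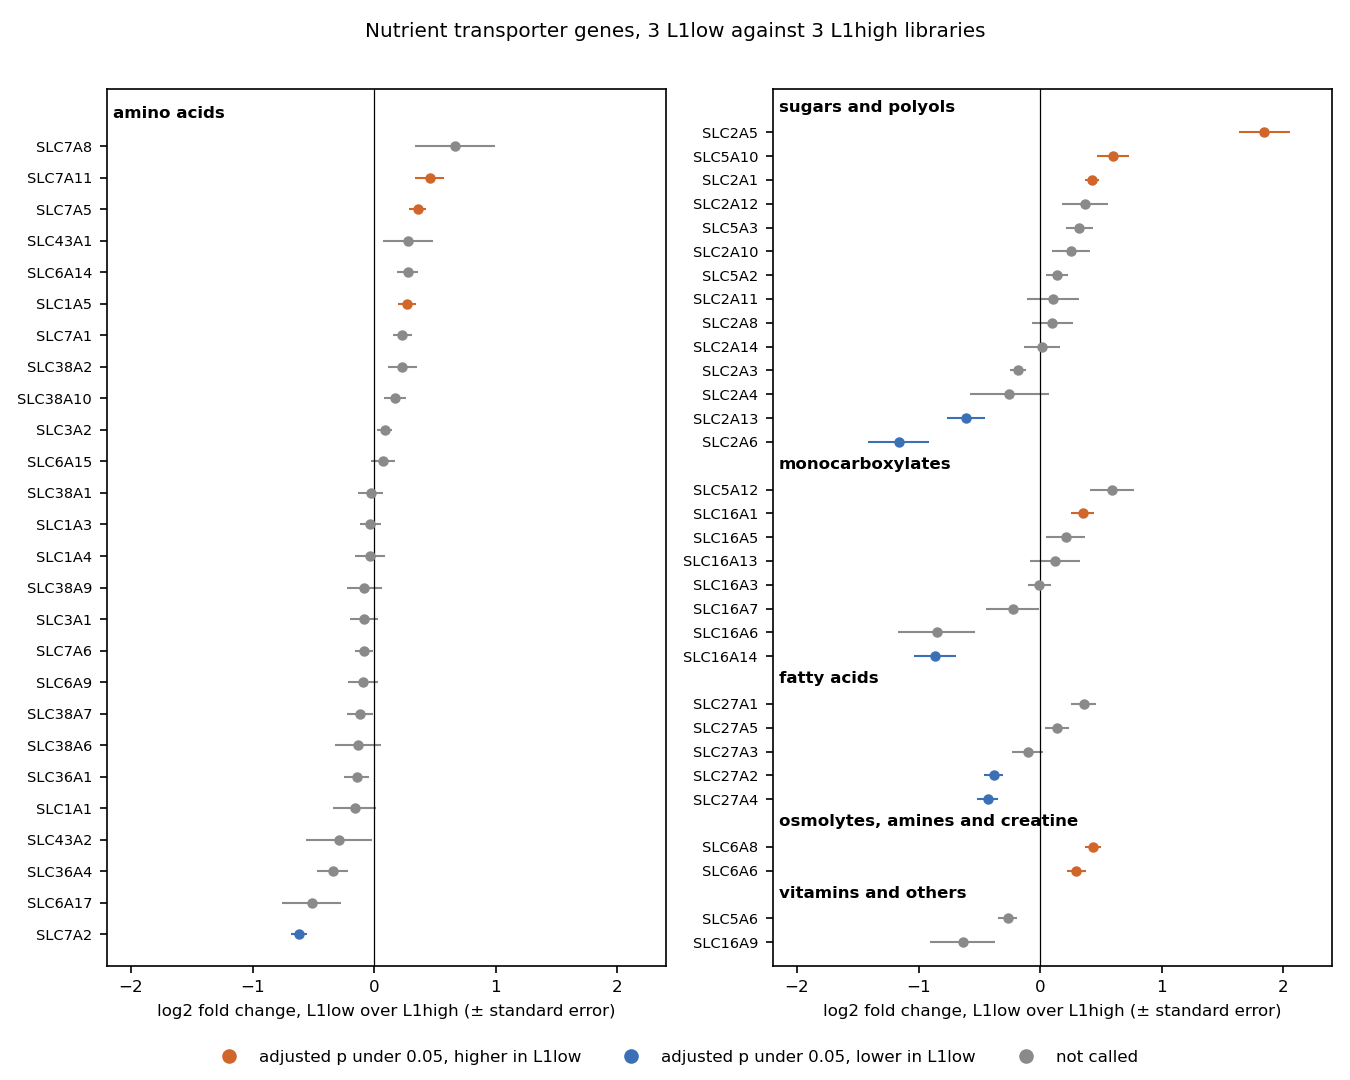
Log2 fold change ± standard error of each of 57 transporter genes, L1low over L1high (3 libraries each), by substrate class; orange and blue mark genes called higher and lower in L1low and grey those not called. The points spread to both sides of 0, from -1.16 for SLC2A6 to 1.84 for SLC2A5. The direction of SLC2A6 was fixed by the filter of the table, and the next lowest is SLC16A14 at -0.86.

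Among the amino acid transporters, the exchangers SLC7A5, SLC7A11 and SLC1A5 rose in L1low and the arginine carrier SLC7A2 fell, while 22 of 26 did not pass the test. The 4 called genes are 15.4% of the class, against 7.95% of all genes and 9.94% of protein-coding genes. SLC7A5 (ENSG00000103257, chr16:87830023-87869507, minus strand, GRCh38) stood at 837, 721 and 858 CPM in L1high and 1050.1, 1051 and 995 in L1low. All L1low libraries lay above all L1high libraries, a 1.28-fold difference of the means (log2 fold change 0.36, standard error 0.07, adjusted p = 0.0105). Its partner SLC3A2, without which the exchanger does not reach the cell surface, stood at 406, 386 and 421 CPM in L1high and 407, 426 and 453 in L1low (log2 fold change 0.09, standard error 0.07, adjusted p = 0.477), and the groups overlapped. The ratio of SLC7A5 to SLC3A2 per length was 2.67 ± 0.140 in L1high and 3.24 ± 0.264 in L1low (SD, n = 3), a pair chosen after the values were seen and therefore given without a test.

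SLC7A11 (ENSG00000151012, chr4:138164097-138242349), the cystine/glutamate exchanger, stood at 55.5, 59.3 and 45.6 CPM in L1high and 79.9, 78.5 and 61.9 in L1low. The lowest L1low library, replicate 3, was only slightly above the highest L1high library, and the difference was 1.37-fold (log2 fold change 0.46, standard error 0.12, adjusted p = 0.0345). SLC1A5 (ENSG00000105281, chr19:46774883-46788594) showed 202, 180.1 and 216 CPM in L1high and 237, 241 and 244 in L1low, a 1.21-fold rise (log2 fold change 0.27, standard error 0.07, adjusted p = 0.0440). The L1low libraries of SLC1A5 were close to each other, and the spread was among the L1high libraries. SLC7A8 (LAT2) and SLC43A1 (LAT3), which carry the same large neutral amino acids as SLC7A5, and SLC7A6 (y+LAT2), which trades cationic for neutral amino acids, did not pass the test (log2 fold changes 0.67, 0.28 and -0.08, adjusted p = 0.251, 0.450 and 0.565). SLC7A8 lay near the floor of the table, at 0.61 to 1.45 CPM. The calls of these exchangers depended on single libraries. That of SLC7A5 was lost without L1low replicate 2 (adjusted p = 0.0745). That of SLC7A11 was lost without L1high replicate 1 or 3 or without L1low replicate 1 or 2 (0.0668 to 0.168), and that of SLC1A5 without any 1 library other than L1high replicate 3 (0.0777 to 0.167).

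Of the 2 measured carriers of arginine and lysine, SLC7A2 fell in L1low and SLC7A1 did not pass the test. SLC7A2 (ENSG00000003989; CAT2) fell from 234, 234 and 224 CPM in L1high to 158, 153 and 141 in L1low. No L1low library came near an L1high library, and the mean was 1.53-fold lower (log2 fold change -0.62, standard error 0.07, adjusted p = 0.000161). SLC7A1 (CAT1), the carrier for the same amino acids found in most cells, stood at 84.2, 71.4 and 83.3 CPM in L1high and 93.1, 93.3 and 94 in L1low. These groups did not overlap either, but the difference did not pass the test (log2 fold change 0.23, standard error 0.08, adjusted p = 0.0974). Their ratio per length, SLC7A1 to SLC7A2, was 0.355 ± 0.0371 in L1high and 0.640 ± 0.0411 in L1low (SD, n = 3; chosen after the values were seen, without a test). SLC7A2 was called in every one of the 13 alternative analyses, including each left-out library.

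None of the 8 measured members of the SLC36 and SLC38 families and none of the 4 amino acid carriers of the SLC6 family passed the test. SLC38A2, which cells raise when amino acids are scarce, was at 485, 491 and 415 CPM in L1high and 645, 558 and 431 in L1low (log2 fold change 0.23, standard error 0.12, adjusted p = 0.284). L1low replicate 3 was within the range of the L1high libraries, and without that library the gene was called (log2 fold change 0.39, adjusted p = 0.0282). SLC38A1, a glutamine carrier, was at 205, 206 and 169 CPM and 207, 199 and 163 CPM (log2 fold change -0.03, standard error 0.10, adjusted p = 0.9). SLC6A14, a concentrating carrier of neutral and cationic amino acids, was at 161, 176 and 151 CPM and 216, 202 and 173 CPM (log2 fold change 0.27, standard error 0.09, adjusted p = 0.0861). With L1low replicate 3 left out, SLC6A14 was also called (0.37, adjusted p = 0.0208). SLC38A9, an arginine sensor of the lysosome, and SLC36A1 and SLC38A7, which export amino acids from lysosomes, had log2 fold changes of -0.08, -0.14 and -0.11 (adjusted p = 0.783, 0.433 and 0.558). The 11 amino acid transporters not yet named with a value (SLC1A1, SLC1A3, SLC1A4, SLC3A1, SLC6A9, SLC6A15, SLC6A17, SLC36A4, SLC38A6, SLC38A10 and SLC43A2) gave log2 fold changes from -0.51 for SLC6A17, a carrier of synaptic vesicles (adjusted p = 0.232), to 0.17 for SLC38A10 (adjusted p = 0.298). The class as a whole had a median log2 fold change of -0.03.

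The sequence before the start of SLC7A5 is shown because this gene had the highest level per length of exon union and a difference between the populations. RefSeq (GRCh38.p14) gave a promoter window for 46 of the 58 genes and 11 of the 15 called ones. The 250 bases before each start were searched on both strands for 3 motifs: the core of the amino acid response element (TTNCATCA), which ATF4 with a C/EBP partner binds, the E-box (CACGTG), which MYC and related factors bind, and the core of the antioxidant response element (TGACNNNGC), which NRF2 binds. None of the motifs can lie within another. The amino acid response element core was present in 3.14% of the 35116 promoters of the table and in 4 of the 46 transporter genes (8.70%, 2 of the 11 called ones), the E-box in 6.34% and in 7 of 46 (15.2%, 3 of the called ones), and the antioxidant response element core in 10.9% and in 6 of 46 (13%, 1 of the called ones). The first shares count promoter windows, and those of the transporters count genes, some with windows before several starts, such as SLC1A5. A gene with several windows has more occasions for a match. The shares are therefore unlike measures, and no excess is read from them. The whole window of SLC7A5 (chr16:87869508-87869757, minus strand), outside any annotated exon, is printed in lower case with its E-box, at 130 to 125 bases before the start, in capitals:
SLC7A5: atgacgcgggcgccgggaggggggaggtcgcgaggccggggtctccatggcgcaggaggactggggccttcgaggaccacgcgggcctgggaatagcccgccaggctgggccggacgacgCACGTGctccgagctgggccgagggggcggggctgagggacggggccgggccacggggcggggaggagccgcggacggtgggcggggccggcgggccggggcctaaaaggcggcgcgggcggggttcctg
Around the motif matches of the other called genes, 10 bases on each side are printed, with the motif in capitals and on the minus strand, which all of these genes occupy:
SLC1A5, amino acid response element core (chr19:46784894-46784921): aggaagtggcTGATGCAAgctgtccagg
SLC1A5, E-box before another start (chr19:46787328-46787353): cgggagtggtCACGTGgacaggacgg
SLC1A5, antioxidant response element core before that start (chr19:46787386-46787414): cctggatcttGCGAGGTCAgctcccgctc
SLC2A5, amino acid response element core (chr1:9069782-9069809): ccgtagactgTTCCATCAggacaatgct
SLC2A13, E-box (chr12:40106091-40106116): cccggggttgCACGTGacccgcggtc
The response element matches of SLC1A5 read on the opposite strand to the motif as spelled, and apart from SLC7A5 the 250 bases of each of these windows hold part of an annotated exon. SLC1A5, SLC2A5 and SLC7A5 rose in L1low and SLC2A13 fell, and a match is a description of the letters, not of binding.

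Of 21 genes of amino acid sensing and mTORC1 control, 3 were called (14.3%, against 7.95% of all genes and 9.94% of protein-coding genes), all higher in L1low. With 3 called genes, this share is no result about the list. These 3 are regulators of mTORC1 or of lysosomal genes. DDIT4, a stress-induced inhibitor of mTORC1, stood at 181, 157 and 182 CPM in L1high and 327, 346 and 348 in L1low, a 1.96-fold rise (log2 fold change 0.97, standard error 0.07, adjusted p = 9.56e-06). SESN3, a sestrin that restrains mTORC1, rose 1.85-fold from 27.4, 28.7 and 21.3 CPM to 55.6, 49.0 and 38.9 CPM (log2 fold change 0.89, standard error 0.14, adjusted p = 0.00250). TFEB, a transcription factor of lysosomal genes, rose 1.46-fold (log2 fold change 0.55, standard error 0.12, adjusted p = 0.0185), a call lost without L1high replicate 1 or L1low replicate 2 (adjusted p = 0.0914 and 0.105). ATF4, the transcription factor of the amino acid response, had a log2 fold change of 0.04 (adjusted p = 0.738), and the list had a median of 0.07. Of 24 enzymes of amino acid metabolism 2 were called (8.33%), a share near that of all genes (7.95%) and no result about the list. BCKDHA, a subunit of the branched-chain keto acid dehydrogenase, had a log2 fold change of 0.36 (adjusted p = 0.0150) and lost its call without L1high replicate 1 or L1low replicate 2 (0.104 and 0.107). GLUD1, the mitochondrial glutamate dehydrogenase, was at -0.25 (adjusted p = 0.0347) and lost its call whichever 1 library was left out (0.0567 to 0.144). The other 22 did not pass the test.

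Among the 14 sugar and polyol transporters, the fructose carrier SLC2A5, the sodium-coupled SLC5A10 and the glucose carrier SLC2A1 rose in L1low, and the inositol carrier SLC2A13 fell. SLC2A6 also had an adjusted p under the threshold, with a direction that the filter of the table had fixed. Counting SLC2A6, 5 of the 14 were called (35.7%), against 7.95% of all genes and 9.94% of protein-coding genes. SLC2A5 (ENSG00000142583, chr1:9035106-9088478; GLUT5) had the widest difference of the 58 genes, with 1.04, 1.02 and 1.04 CPM in L1high and 3.41, 3.79 and 3.95 in L1low. Each L1low library lay far above each L1high library, a 3.60-fold difference (log2 fold change 1.84, standard error 0.21, adjusted p = 0.000233). Its level was low, at 0.561 CPM per kilobase in L1low against 98.3 for SLC2A1.

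SLC2A1 (ENSG00000117394, chr1:42925353-42958893; GLUT1) stood at 479.9, 471 and 503 CPM in L1high and 633, 660.3 and 657 in L1low. The groups were well apart and tight, a 1.34-fold difference (log2 fold change 0.42, standard error 0.06, adjusted p = 0.000976). SLC2A3 (GLUT3), the carrier with higher affinity for glucose, was at 94.6, 91.3 and 94.4 CPM in L1high and 82.4, 82.5 and 82.2 in L1low. These groups did not overlap, with L1low below, and the difference did not pass the test (log2 fold change -0.18, standard error 0.06, adjusted p = 0.113). The ratio of SLC2A1 to SLC2A3 per length was 5.69 ± 0.138 in L1high and 8.66 ± 0.197 in L1low (SD, n = 3; chosen after the values were seen, without a test). SLC2A3 shares sequence with the pseudogenes SLC2A3P1, SLC2A3P2 and SLC2A3P4 and with SLC2A14, which had rows of their own. How reads with several placements were counted is not given, so the level of SLC2A3 is uncertain. The same limit applies to called genes with pseudogenes. SLC7A5 has SLC7A5P2, with a row of 168 counts in all, and SLC7A5P1, without a row. The pseudogenes of SLC16A1, SLC16A14, SLC2A13 and SLC6A6 had no row. Both SLC2A5 and SLC2A1 were called in each of the 13 alternatives.

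SLC5A10 (ENSG00000154025, chr17:18950345-19022595; SGLT5), a sodium-coupled carrier of fructose and mannose, stood at 11.5, 10.3 and 12 CPM in L1high and 18.6, 18.7 and 14.1 in L1low (log2 fold change 0.60, standard error 0.13, adjusted p = 0.0165). Its exons overlap those of FAM83G on the opposite strand, a gene with 56.7, 50.7 and 64.6 CPM in L1high and 82.6, 80.7 and 74.9 in L1low (log2 fold change 0.47, standard error 0.09, adjusted p = 0.00909). The libraries were stranded but the strand setting of the counting is not given, so reads of SLC5A10 and FAM83G cannot be told apart with certainty. SLC2A6 (ENSG00000160326, chr9:133471094-133479127; GLUT6), a hexose carrier of lysosomes, was at 1.98, 1.85 and 2.07 CPM in L1high and 0.881, 0.780 and 0.96 in L1low (log2 fold change -1.16, standard error 0.25, adjusted p = 0.0153). Because it entered the table only through its L1high libraries, a gene at this level had to be lower in L1low. SLC2A13 (ENSG00000151229, chr12:39755025-40106089; HMIT), a proton-coupled carrier of myo-inositol, was at 6.79, 6.13 and 5.60 CPM and 4.35, 4.29 and 3.50 CPM (log2 fold change -0.61, standard error 0.16, adjusted p = 0.0345). SLC5A3, the sodium-coupled carrier of myo-inositol, gave 0.32 (adjusted p = 0.111), and was called without L1low replicate 3 (0.44, adjusted p = 0.0329). The difference between the 2 inositol carriers was not tested. The remaining sugar carriers SLC2A4, SLC2A8, SLC2A10, SLC2A11, SLC2A12, SLC2A14 and SLC5A2 ranged from -0.25 for SLC2A4, the insulin-responsive GLUT4 (adjusted p = 0.690), to 0.37 for SLC2A12 (adjusted p = 0.266). The call of SLC5A10 was lost without L1high replicate 1 or 2 or L1low replicate 1 or 2 (adjusted p = 0.0529 to 0.101), that of SLC2A6 without L1high replicate 1 or L1low replicate 2 (0.0696 and 0.0790), and that of SLC2A13 without any 1 library other than L1high replicate 3 (0.0556 to 0.165).

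Of 17 measured genes of sugar and polyol metabolism, 5 were called (29.4%, against 7.95% of all genes), all higher in L1low, and the list had a median log2 fold change of 0.16. TXNIP, an arrestin that promotes the removal of GLUT1 from the cell surface and is induced by glucose, stood at 176, 184 and 179.9 CPM in L1high and 341, 331 and 321 in L1low, a 1.84-fold rise (log2 fold change 0.88, standard error 0.06, adjusted p = 6.20e-06). PFKFB3 and PFKFB4, which make the activator of phosphofructokinase fructose-2,6-bisphosphate, rose 1.6-fold and 1.53-fold (adjusted p = 0.000508 and 0.00120). IMPA2, an inositol monophosphatase, rose 1.36-fold (adjusted p = 0.00613), a call lost without L1low replicate 2 (0.0524). The other called gene was GPI, the glucose-6-phosphate isomerase (0.22, adjusted p = 0.0252), which lost its call without L1high replicate 1 or L1low replicate 1 or 2 (0.0599 to 0.157). The hexokinases HK1 and HK2 and the fructokinase KHK did not pass the test (log2 fold changes 0.25, 0.10 and -0.22; adjusted p = 0.0683, 0.412 and 0.445).

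**Figure D3:**
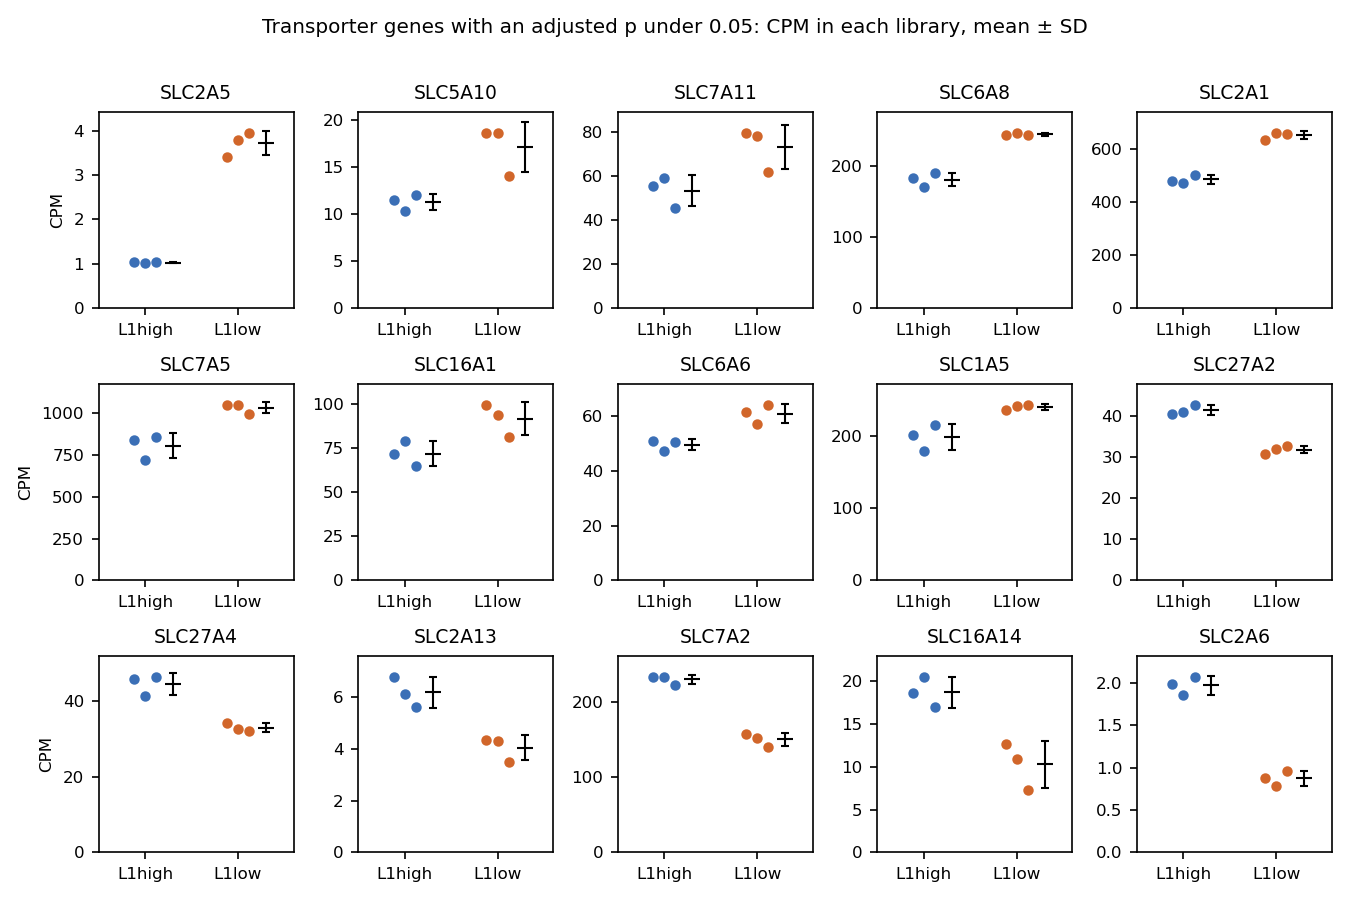
CPM in each library (points, from 0 on a linear axis) of the 15 called transporter genes, with the mean ± SD (n = 3) beside them, L1high in blue and L1low in orange. The groups do not overlap in any of the 15 panels, and for SLC2A6 the direction was fixed by the filter of the table. SLC2A5 and SLC2A6 are at the lowest levels, with highest values of 3.95 and 2.07 CPM.

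Of the 8 genes classed under monocarboxylates, 2 were called (25%), against 7.95% of all genes and 9.94% of protein-coding genes. The lactate carrier SLC16A1 rose and SLC16A14 fell. SLC16A1 (ENSG00000155380, chr1:112911847-112957593; MCT1) stood at 71.5, 79.0 and 64.9 CPM in L1high and 99.7, 93.9 and 81.5 in L1low. The lowest L1low value, in replicate 3, was close to the highest L1high value, and the mean was 1.28-fold higher (log2 fold change 0.35, standard error 0.09, adjusted p = 0.0434). SLC16A3 (MCT4), the carrier that exports lactate from glycolytic cells, was at 133, 120.4 and 149 CPM and 121, 150.3 and 129.5 CPM (log2 fold change -0.01, standard error 0.10, adjusted p = 0.980), and its groups overlapped. SLC16A14 (ENSG00000163053, chr2:230034982-230068993), a family member whose substrate is not settled, stood at 18.5, 20.5 and 16.9 CPM in L1high and 12.6, 10.9 and 7.23 in L1low. Replicate 3 was the lowest L1low library, all 3 lay below L1high, and the mean was 1.82-fold lower (log2 fold change -0.86, standard error 0.17, adjusted p = 0.00956). Its call held in every one of the 13 alternatives, whereas that of SLC16A1 was lost without L1high replicate 1 or 3 or L1low replicate 1 or 2 (adjusted p = 0.0946 to 0.178). SLC5A12, a sodium-coupled lactate carrier, and SLC16A6, a carrier of ketone bodies, had groups that did not overlap without passing the test (log2 fold changes 0.59 and -0.85, adjusted p = 0.0699 and 0.133). SLC16A6 lay near the floor of the table, at 1.37, 2.68 and 1.46 CPM in L1high and 0.99, 1.06 and 1.02 in L1low. SLC16A5, SLC16A7 and SLC16A13 ranged from -0.23 (SLC16A7, adjusted p = 0.572) to 0.21 (SLC16A5, adjusted p = 0.479).

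Of 12 measured genes of lactate and pyruvate metabolism, 3 were called (25%), all lower in L1low. Of all genes 7.95% were called and of protein-coding genes 9.94%, and 3.37% of all genes were called lower. PDK4, a kinase that switches off pyruvate dehydrogenase, stood at 26.4, 27.8 and 21.3 CPM in L1high and 13.2, 16.9 and 10.1 in L1low, 1.88-fold lower (log2 fold change -0.92, standard error 0.17, adjusted p = 0.00613). MPC1 and MPC2, the subunits of the mitochondrial pyruvate carrier, were both called lower (-0.41 and -0.43, adjusted p = 0.0333 and 0.0173). The call of MPC1 was lost without L1high replicate 1 or 2 or L1low replicate 1 or 2 (0.0890 to 0.169), and that of MPC2 without L1low replicate 2 or 3 (0.0769 and 0.0642). BSG, the chaperone of MCT1 and MCT4, and LDHA, the lactate dehydrogenase subunit of glycolytic cells, did not pass the test (-0.01 and -0.02, adjusted p = 0.944 and 0.883). The list had a median of -0.06.

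Of the 5 fatty acid transporters, 2 (40%) were called lower in L1low, against 3.37% of all genes, and none was called higher. SLC27A4 (ENSG00000167114, chr9:128340527-128361470; FATP4), which takes up and activates long-chain fatty acids, stood at 46.0, 41.3 and 46.5 CPM in L1high and 34.3, 32.6 and 32.1 in L1low. The groups were clearly separate, and the mean was 1.35-fold lower (log2 fold change -0.43, standard error 0.08, adjusted p = 0.00868). SLC27A2 (ENSG00000140284, chr15:50182196-50236385; FATP2), an acyl-CoA synthetase for very-long-chain fatty acids, fell 1.30-fold from 40.5, 40.9 and 42.7 CPM to 30.8, 31.8 and 32.6 CPM (log2 fold change -0.38, standard error 0.08, adjusted p = 0.0122). SLC27A1 (FATP1) had L1low above L1high in every library, at 12.9, 14.2 and 14.7 CPM and 18.6, 16.9 and 18.1 CPM, without passing the test (log2 fold change 0.36, standard error 0.10, adjusted p = 0.0546). SLC27A3 and SLC27A5 gave -0.10 and 0.14 (adjusted p = 0.681 and 0.442). Both calls were lost without L1high replicate 1 (adjusted p = 0.0650 for SLC27A4 and 0.0622 for SLC27A2) or without L1low replicate 2 (0.0610 and 0.0719).

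Among 13 measured genes of fatty acid uptake and activation, CD36, a surface receptor for fatty acids, fell from 8.44, 7.06 and 6.46 CPM to 5.45, 4.96 and 4.12 CPM (log2 fold change -0.60, standard error 0.16, adjusted p = 0.0429), a call lost without L1high replicate 1 or 2 or L1low replicate 2 or 3 (adjusted p = 0.0702 to 0.202). ACSL4, which activates arachidonic acid and related fatty acids, rose 1.33-fold from 179.6, 185 and 170.0 CPM to 243, 253 and 216 CPM (log2 fold change 0.41, standard error 0.07, adjusted p = 0.00549), a call lost without L1low replicate 2 (0.0518). The 2 called genes are 15.4% of the list, against 7.95% of all genes and 9.94% of protein-coding genes. With 2 genes in opposite directions, this share is no result about the list. The other 11 did not pass the test, among them CPT1A, the gate of fatty acids into mitochondria (-0.06, adjusted p = 0.604).

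**Figure D4:**
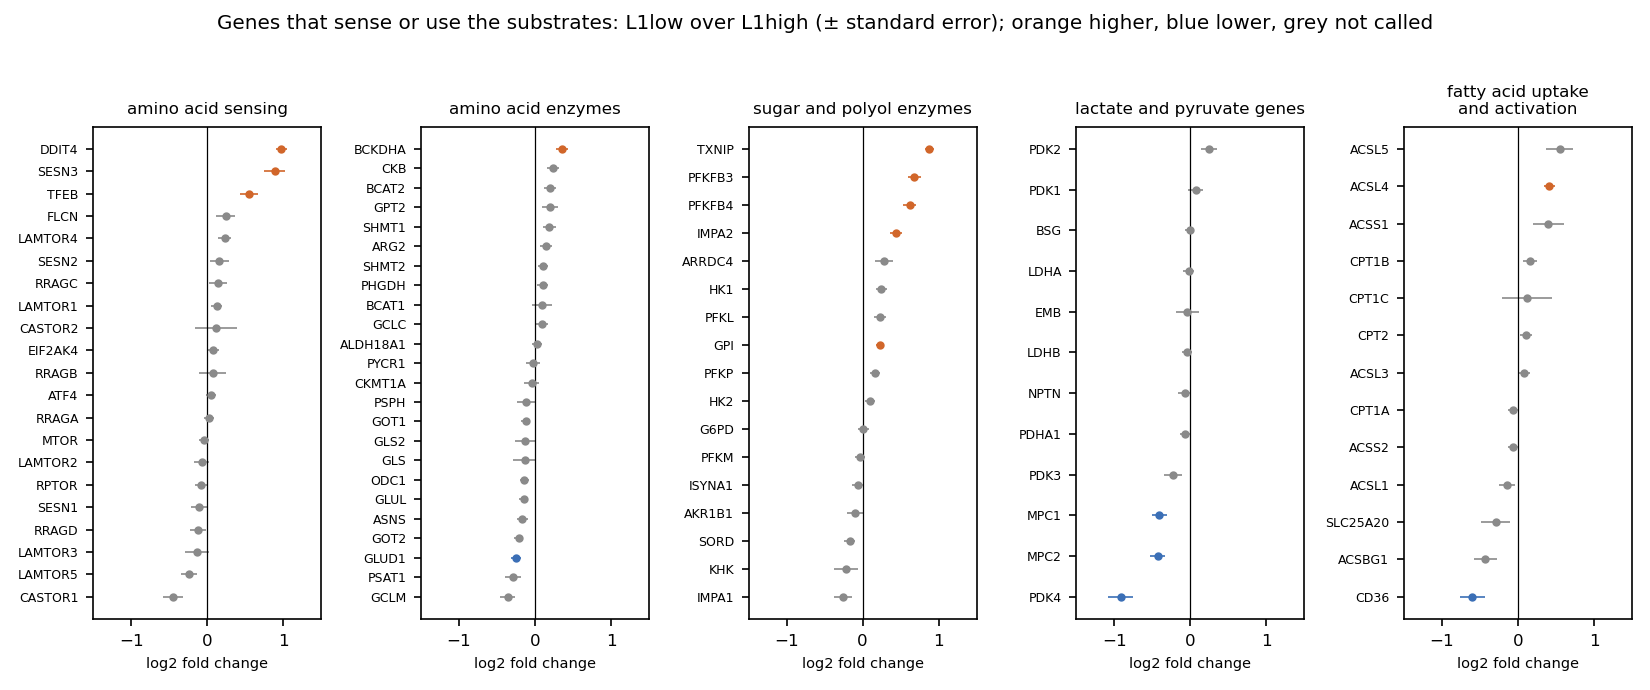
Log2 fold change ± standard error, L1low over L1high (3 libraries each), of the measured genes of 5 lists of genes that use the transported substrates or regulate the response to them; orange, blue and grey mark genes called higher, called lower and not called. The called genes of sugar and polyol metabolism all lie right of 0 and those of lactate and pyruvate metabolism left of it.

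Both measured carriers of osmolytes and creatine were called higher in L1low, against 4.58% of all genes. With 2 genes, this share is no result about the class. SLC6A8 (ENSG00000130821, chrX:153687926-153696588), the creatine carrier, stood at 183, 171 and 190.1 CPM in L1high and 244, 247 and 244 in L1low. The L1low libraries agreed closely and lay above all L1high libraries, a 1.35-fold difference (log2 fold change 0.43, standard error 0.06, adjusted p = 0.00152), and the call held in each of the 13 alternatives. SLC6A6 (ENSG00000131389, chr3:14402576-14489349), the taurine carrier, rose 1.23-fold from 51.0, 47.2 and 50.7 CPM to 61.5, 57.2 and 64.3 CPM (log2 fold change 0.30, standard error 0.08, adjusted p = 0.0387), and its call was lost when any 1 library was left out (adjusted p = 0.0502 to 0.123). None of the 3 carriers of vitamins and other molecules was called. SLC5A6, which takes up biotin and pantothenate, was at 73.7, 72.8 and 80.1 CPM in L1high and 58.2, 64.4 and 65.5 in L1low, with no overlap and L1low below (log2 fold change -0.27, standard error 0.08, adjusted p = 0.0560). SLC16A9, a carnitine carrier, gave -0.64 (adjusted p = 0.181).

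Summed over a class, the amino acid transporters held 2915 ± 74.4 CPM in L1high and 3269 ± 178 CPM in L1low (SD, n = 3), the sugar and polyol transporters 680.4 ± 23.4 and 853 ± 11.7, and the fatty acid transporters 129.9 ± 5.22 and 113 ± 4.10. In the first 2 classes 1 gene carried most of the difference. Without SLC7A5 the amino acid transporters held 2109.7 ± 50.1 CPM in L1high and 2237 ± 147 in L1low, and without SLC2A1 the sugar and polyol transporters held 196 ± 11.2 and 203 ± 6.09. Several called genes share exonic bases with a neighbour on the other strand that had a row: SLC1A5 with ENSG00000275719, SLC7A5 with ENSG00000260466, SLC27A2 with ATP8B4, SLC6A8 with PNCK, SLC6A6 with GRIP2, and SLC16A1 and SLC7A11 with their antisense RNAs. Reads of these pairs cannot be told apart where the counting ignored strand. Of these neighbours, none was called over the 6 libraries, and all had fewer counts than the transporter gene. Each had a log2 fold change of the same sign as its transporter gene. The values were 0.29 for ENSG00000275719, 0.25 for ENSG00000260466, -0.55 for ATP8B4 and 0.45 for PNCK. They were 0.19 for GRIP2, 0.12 for SLC16A1-AS1 and 0.56 for SLC7A11-AS1. Without L1high replicate 3, ENSG00000275719 was called (adjusted p = 0.0360). The part of shared reads in the calls was not tested.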

How the data were processed

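RNA-seq libraries of sorted L1high and L1low L3.6pl cells, 3 of each, were used as deposited. The libraries were stranded and read from both ends. The authors placed the reads on GRCh38 using BWA and deposited whole-number counts per gene of Ensembl release 94, made with featureCounts and not normalized. Versions and the strand and multi-mapping settings are not given in the sources used here. The submitters' processing notes also name DESeq2 without a version. In the deposited table every gene exceeds 1 CPM in at least 2 of the 6 libraries.

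GENCODE release 44 gave symbols, coordinates and exon lengths for 19344 of the 19469 rows. Counts were compared in R 4.3.3 with edgeR 4.0.16 (TMM factors, filterByExpr, quasi-likelihood test, Benjamini-Hochberg adjustment over all 19467 genes kept, 0.05 as the threshold). The standard error is the size of the log2 fold change over the square root of F. Levels between genes are CPM per kilobase of the union of exons. In a simulation that altered 200 of 19469 genes by a log2 change of 1, the edgeR fit recovered 171 (85.5%), with 7 of 178 calls false. All called transporter genes except SLC2A5 and SLC2A6 had smaller changes, and recovery at such sizes was not simulated. Total counts per library were 16334610 to 21064685. Precision was set by the spread between libraries of a group, which exceeded sampling noise (chi-square per degree of freedom 3.66 to 11.5 between pairs).

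The members and lists were chosen with earlier results of these data known, and substrate classes and lists were written from general knowledge. Named genes are all called transporters, well-known transporters of each substrate whatever their values, the most abundant gene of each class, and up to 4 called genes per partner list with the largest changes. The other transporter genes with values, and ATF4, HK1, HK2, KHK, GPI, BSG, LDHA and CPT1A, are named outside this rule, with their values already known. Alternatives were RLE and upper-quartile scaling, library totals, DESeq2 1.42.0, no filter, at least 10 counts in every library, a replicate block and leaving out each library. No pair of libraries agreed within sampling noise. Promoter windows are from RefSeq (GRCh38.p14). The columns of the authors' own comparisons were not used. The values of 1 transporter gene that was not called are not reported here, though it is within the counts.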

Additional observations from a re-analysis of the deposited data

How the results depend on the processing

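Of 454 alternative values of 35 results under 13 alternatives, 392 kept both sign and call or stayed within their limits, 38 lost a call, 6 gained one and 18 shifted, namely counts, the median of the fatty acid carriers, and SLC38A1 and SLC16A3, which were not called and lay near 0. No called value changed sign. SLC2A5, SLC2A1, SLC6A8, SLC7A2 and SLC16A14 were called under every alternative. When 1 library was left out, the number of called transporter genes ranged from 5 to 15, with 3 to 10 higher and 2 to 6 lower, and that of all genes from 627 to 1473 against 1548. It was 5 without L1low replicate 2, 6 without L1high replicate 1 and 9 without L1low replicate 1, with 627, 674 and 1179 genes called in all. With library totals as scaling 14 transporter genes were called, 7 higher and 7 lower against 9 and 6, since SLC1A5 and SLC16A1 lost their calls (adjusted p = 0.0526 and 0.0551) and SLC5A6 gained one (0.0430). DESeq2 called 14, without SLC2A13 (0.0502), with SLC5A6 (0.0496), and gave no adjusted p for SLC2A6. Fitting the replicate number as a replicate block called 2363 genes and 21 transporter genes, adding SLC27A1, SLC36A4, SLC5A12, SLC5A3, SLC5A6 and SLC6A14. Deviations of same-numbered libraries correlated at 0.074, 0.091 and 0.208, and each library correlated best with its own number, a hint from the data only, so the block was not used. Genes absent from the table cannot be judged at this depth. Changes well above the standard errors given could also go uncalled, as for SLC5A6 (log2 fold change -0.27, standard error 0.08). Genes that were not called are therefore not shown to be unchanged.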
